A study of Sus scrofa with 14 samples.

Results

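Epi-piPSC-FL6i, a pair of porcine induced pluripotent stem cell (iPSC) lines made with episomal plasmids, were compared with pESCLC-primary, a pair of primary outgrowths of porcine blastocysts, by messenger RNA sequencing. The members were chosen by their sample labels and were 4 of the 14 samples of the series, 2 in each group. Of the 19588 genes in the deposited table, 14366 reached 10 normalized counts in 2 or more of these 4 samples and were tested, and 11910 of those carried a gene symbol. The pESCLC-primary samples, labeled 1 and 2, are labeled as outgrowths of the inner cell mass and grew in F medium, which supplies FGF2. The study made such outgrowths from intact blastocysts as well as from isolated inner cell masses, and the labels do not say which method gave these samples. No passage was given for them. Of the Epi-piPSC-FL6i pair, sample 1 was line C10 at passage 12 and sample 2 was line C11 at passage 11. Both lines came from porcine fetal fibroblasts that had been electroporated with plasmids carrying the human POU5F1, SOX2, KLF4, LIN28 and L-MYC genes and a short hairpin RNA against p53. Colonies were picked and expanded in FL6i medium, which supplies FGF2 and LIF together with inhibitors of the MEK kinase, GSK3, the TGFB1 and BMP receptors, and the p38 and JNK kinases. The media also differed in their base. That of the outgrowths held fetal bovine serum and more FGF2, while FL6i had another base medium with serum replacement, insulin and IGF1. The plasmids do not integrate by design, but variable amounts of plasmid DNA were kept by such lines. All 4 cultures were grown on irradiated mouse embryonic fibroblasts. Cell origin, medium, time in culture and the plasmids differed together between the groups, so their effects cannot be told apart. The sources used here do not say whether the outgrowths came from separate batches of embryos, so p-values describe the spread between these samples only.

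The blastocyst holds an epiblast, which gives rise to the embryo proper, a hypoblast (primitive endoderm), which lines the yolk sac and secretes apolipoproteins and basement membrane, and an outer trophectoderm, which forms the placenta. An outgrowth can hold descendants of several of these layers, whereas an iPSC line is grown from a colony of reprogrammed somatic cells. Pluripotent cells are described along an axis from a naive state, sustained by LIF with MEK and GSK3 inhibition, to a primed state, sustained by FGF and activin, and the medium of the iPSC lines blocks the receptors or kinases of several of the pathways that act along this axis.

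The 4 libraries held 16493637 to 17887375 reads on genes, against 6193659 to 58878377 across the series. A single read was worth 0.965 to 1.09 normalized counts in these libraries, so a printed value near 1 is 1 read. The duplicates correlated at r = 0.987 (Epi-piPSC-FL6i) and 0.974 (pESCLC-primary) across genes, and samples of different groups at 0.726 to 0.757. Genes are not independent replicates, and these values describe the libraries only. The duplicates differed by more than counting noise in both groups, with a chi-square per degree of freedom of 8.69 and 26.0, so each library was kept as a sample of its own.

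Of the genes tested, 1685 (11.7%) were differentially expressed genes (DEGs), defined as a log2 fold change of at least 3 in either direction with an adjusted p of at most 0.05 in limma. Of these, 648 (4.51%) were higher and 1037 (7.22%) were lower in Epi-piPSC-FL6i. The groups did not overlap in any of the 1685 DEGs, so a lack of overlap in a named DEG adds nothing to its call. With no requirement on the fold change, 8185 genes (57.0%) passed the adjusted p, 4098 (28.5%) higher and 4087 (28.4%) lower. The median log2 fold change over all genes tested was 0.01 and the median standard error was 0.19. The number at the adjusted p alone was 4380 with all 14 samples in a single fit, and it was 4205 without Epi-piPSC-FL6i replicate 1 and 4126 without Epi-piPSC-FL6i replicate 2. The gene lists described next are read against these shares, and each list count covers the members that were tested, not those too low to test. In bulk samples, fewer cells of a type and less RNA per cell cannot be told apart.

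**Figure D1:**
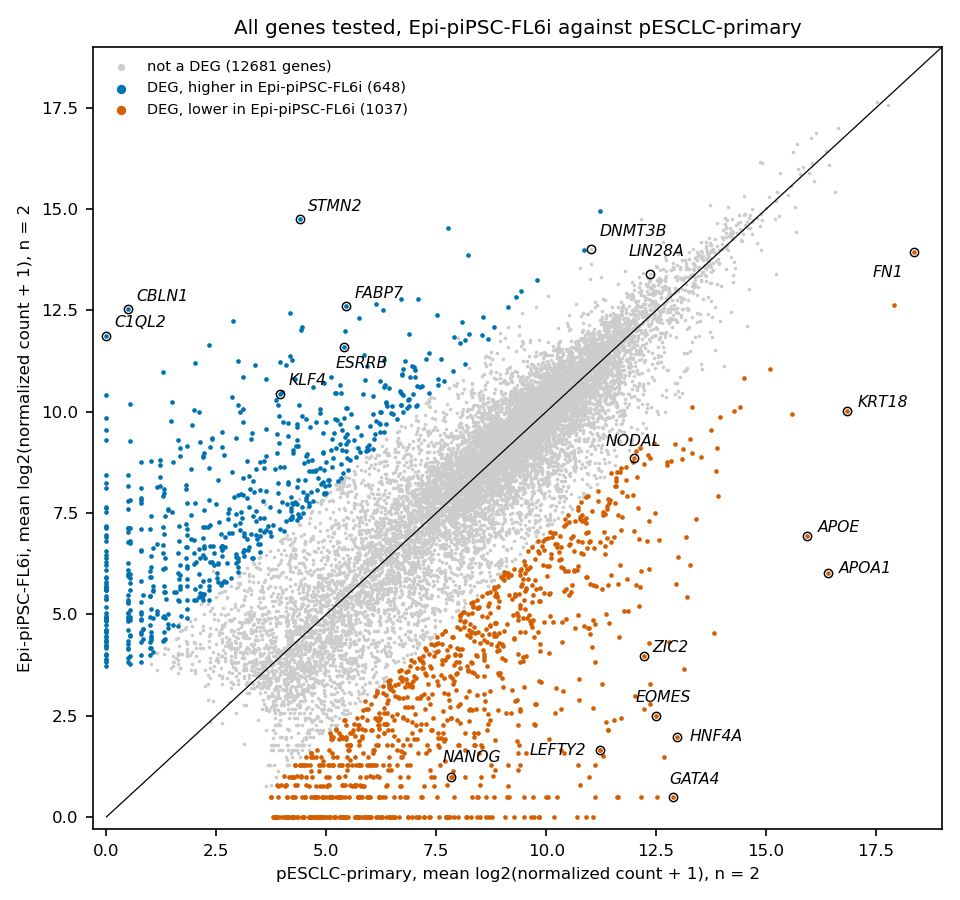
Each point is a gene tested, placed by its mean log2(normalized count + 1) in the 2 pESCLC-primary samples (x axis) and the 2 Epi-piPSC-FL6i samples (y axis). Blue and orange points are the 648 and 1037 DEGs, the diagonal marks equal levels, and the circled hypoblast genes GATA4, HNF4A, APOA1 and APOE lie at the lower right while STMN2, CBLN1 and C1QL2 lie at the upper left.

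Hypoblast and visceral endoderm markers were lower in Epi-piPSC-FL6i over most of the list. Of 27 markers, 24 had an identifier and 21 were tested; 19 were lower, 1 was higher and 1 did not pass, and 12 of those that were lower were DEGs. The median log2 fold change of the 21 was -6.29, or -6.28 with the gene at 0 reads set at its bound, and it was -5.67 and -6.91 without Epi-piPSC-FL6i replicate 1 and 2. GATA4, a zinc-finger factor of the primitive endoderm, had 6692 and 8623 normalized counts in the 2 pESCLC-primary samples and 0 and 0.999 in the 2 Epi-piPSC-FL6i samples. The only read of GATA4 in the iPSC lines gave a ratio of 15593 with a 95% counting interval from 2799 to 615883 (adjusted p = 1.73e-05). FOXA2, a forkhead factor of endoderm, had 3030 and 3287 against 0.965 and 0. HNF4A, a nuclear receptor that controls apolipoprotein genes in visceral endoderm and liver, had 7811 and 8335 against 2.90 and 3.0 (log2 fold change -11.00, SE 0.21, adjusted p = 6.34e-06). The pESCLC-primary values of these regulators ran from 3030 to 8623, and no Epi-piPSC-FL6i value was above 3.0.

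GATA6, the factor that marks the hypoblast earliest, fell less than GATA4, FOXA2 and HNF4A. It had 2740 and 2561 normalized counts in pESCLC-primary and 433 and 624 in Epi-piPSC-FL6i (log2 fold change -2.35, SE 0.18, adjusted p = 0.000196), so it was lower but not a DEG and was well above 0 in both iPSC lines. SPARC, a secreted matrix protein, was the member of the list that was higher, at 6356 and 6812 against 8594 and 8587 (log2 fold change 0.38, SE 0.08). TTR, a thyroid hormone carrier, was low in all 4 samples (23.6 and 24 against 13.5 and 6.99) and did not pass. AFP, the fetal albumin-like protein of the yolk sac, was listed with 0 reads in all 4 samples. GATA6 did not pass with all 14 samples in a single fit (adjusted p = 0.236). SPARC did not pass with all 14 samples in a single fit or without Epi-piPSC-FL6i replicate 1 or 2 (adjusted p = 0.787, 0.105 and 0.105).

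Secreted products of this layer fell to unlike degrees. The laminin, nidogen and type IV collagen genes tested in the list were lower (log2 fold change from -0.58 to -2.45). None of them was a DEG, nor was an apolipoprotein gene at -2.39. Other products fell far more. APOA1, the main protein of high-density lipoprotein, had 68583 and 111894 normalized counts in pESCLC-primary and 61.8 and 64.9 in Epi-piPSC-FL6i (log2 fold change -10.41, SE 0.22, adjusted p = 9.9e-06). APOE, the ligand by which lipoprotein remnants are taken up, had 52416 and 75057 against 85.9 and 168 (log2 fold change -9.02, SE 0.32). For both genes the groups did not overlap, as for all 1685 DEGs. APOA2 had 189.8 and 267 against 0 in both iPSC lines, at least 77.5-fold lower, and APOC3 had 146 and 175 against 0 in both, at least 54.4-fold lower. APOM had 547 and 790.3 against 10.6 and 0.999 (log2 fold change -7.09). In the list of lipid droplet, fatty acid and apolipoprotein genes, 11 of 18 members tested were lower, 4 were higher and 3 did not pass, with a median of -0.56, and 7 were lower without Epi-piPSC-FL6i replicate 1 and with all 14 samples in a single fit. The 4 higher members were FABP5, LPL (1.68), PLIN2 and ELOVL6 (0.30), and 2 were higher without either pESCLC-primary sample, without Epi-piPSC-FL6i replicate 1 and with all 14 samples in a single fit. FABP5, a fatty acid binding protein, had 381 and 284 against 1542 and 1275 (log2 fold change 2.09), and PLIN2, a coat protein of lipid droplets, had 841 and 795 against 2021 and 1881 (1.25). LPL did not pass with all 14 samples in a single fit, without pESCLC-primary replicate 1 or 2 or without Epi-piPSC-FL6i replicate 1 (adjusted p = 0.101, 0.111, 0.0561 and 0.105). ELOVL6 did not pass with all 14 samples in a single fit, without pESCLC-primary replicate 1 or 2 or without Epi-piPSC-FL6i replicate 1 or 2 (adjusted p = 0.66, 0.0671, 0.0817, 0.102 and 0.211). APOM had a log2 fold change of -8.36 and -5.82 without Epi-piPSC-FL6i replicate 1 and 2.

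Promoter windows of the hypoblast list were taken from RefSeq (Sscrofa11.1, from 250 bases before to 50 bases after each annotated gene start). They were searched on either strand for the letters GATAAG, a sequence bound by GATA factors. Whether a GATA factor had a part in the changes was not tested. The letters were found in 1099 of 19556 windows (5.62%). They were in 2 of 14 windows of the named genes that rose most and in 3 of 15 of those that fell most. In the hypoblast list they were in 4 of the 20 windows that could be read, those of GATA4, APOA1, APOA2 and APOE. The 3 from the apolipoprotein genes APOA1, APOA2 and APOE are printed 5′ to 3′ on the strand of the gene, with the match in capitals (CTTATC where it lies on the opposite strand). A match is a description of the sequence and does not show that a factor is bound there.
APOA1, chr9:44218311-44218610, minus strand: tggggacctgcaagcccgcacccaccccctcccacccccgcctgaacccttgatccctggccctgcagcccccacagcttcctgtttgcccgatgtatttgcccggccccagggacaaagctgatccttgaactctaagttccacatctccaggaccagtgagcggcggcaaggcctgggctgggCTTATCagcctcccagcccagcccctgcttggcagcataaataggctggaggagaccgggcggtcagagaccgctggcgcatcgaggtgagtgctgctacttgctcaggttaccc
APOA2, chr4:89237264-89237563, plus strand: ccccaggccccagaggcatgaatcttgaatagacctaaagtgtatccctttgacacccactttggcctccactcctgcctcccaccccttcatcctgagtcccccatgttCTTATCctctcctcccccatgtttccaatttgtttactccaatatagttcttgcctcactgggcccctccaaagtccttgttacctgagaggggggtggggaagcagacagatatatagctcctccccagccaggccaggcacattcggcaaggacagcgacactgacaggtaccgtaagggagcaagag
APOE, chr6:51372863-51373162, plus strand: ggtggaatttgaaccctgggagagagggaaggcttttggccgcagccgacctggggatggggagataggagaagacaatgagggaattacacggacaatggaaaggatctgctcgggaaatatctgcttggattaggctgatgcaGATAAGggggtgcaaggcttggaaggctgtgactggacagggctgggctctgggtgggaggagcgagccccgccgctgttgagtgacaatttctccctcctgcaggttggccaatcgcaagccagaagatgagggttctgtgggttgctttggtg

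Trophectoderm and trophoblast markers were also mostly lower. Of 24 markers, 16 were tested; 13 were lower, 2 were higher and 1 did not pass, with 10 lower and 1 higher DEGs and a median of -4.66 (-4.29 with the genes at 0 reads at their bounds). KRT18 and KRT8 encode the partner keratins of simple epithelia. KRT18 had 106335 and 129060 normalized counts against 1038 and 1019 (log2 fold change -6.83, SE 0.11, adjusted p = 6.34e-06), and KRT8 had 230905 and 265084 against 4776 and 8472 (-5.28, SE 0.26). KRT7, a keratin of the trophoblast, had 1679 and 2279 against 50.2 and 69.9 (-5.02). The 2 iPSC lines were close to each other for KRT18 and lay far below both outgrowths for all 3 keratins. DLX5, a homeobox factor, had 281 and 169 against 0 in both lines, at least 76.5-fold lower. GATA3, a factor of trophectoderm specification, had 1858 and 1683 against 96.5 and 83.9 (-4.28, SE 0.16).

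Other trophoblast regulators were less uniform. CDX2, which specifies the trophectoderm in mouse and marks posterior embryonic tissue later, had 388 and 26.2 in the 2 outgrowths and 0.965 and 0 in the iPSC lines (adjusted p = 0.00646), so most of its reads came from 1 outgrowth. ELF5, a factor of trophoblast stem cells, had 280.3 and 71 against 66.6 and 111 and did not pass, with overlapping groups and a difference of 0.27 in the opposite direction without pESCLC-primary replicate 1. GATA2 went the other way at 86.6 and 33.9 against 201 and 143 (1.62, SE 0.48), and CYP17A1, an enzyme of steroid synthesis, had 2.95 and 0 against 18.3 and 36, a ratio of 17.4 (95% counting interval, 5.97 to 84.5). CDX2 and CYP17A1 did not pass without Epi-piPSC-FL6i replicate 1 or 2 (adjusted p = 0.0742 and 0.0995 for CDX2, 0.056 and 0.0885 for CYP17A1). GATA2 did not pass with all 14 samples in a single fit, without pESCLC-primary replicate 2 or without Epi-piPSC-FL6i replicate 1 or 2 (adjusted p = 0.365, 0.111, 0.229 and 0.139). GATA2 had a log2 fold change of 2.29 and 0.96 without pESCLC-primary replicate 1 and 2.

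**Figure D2:**
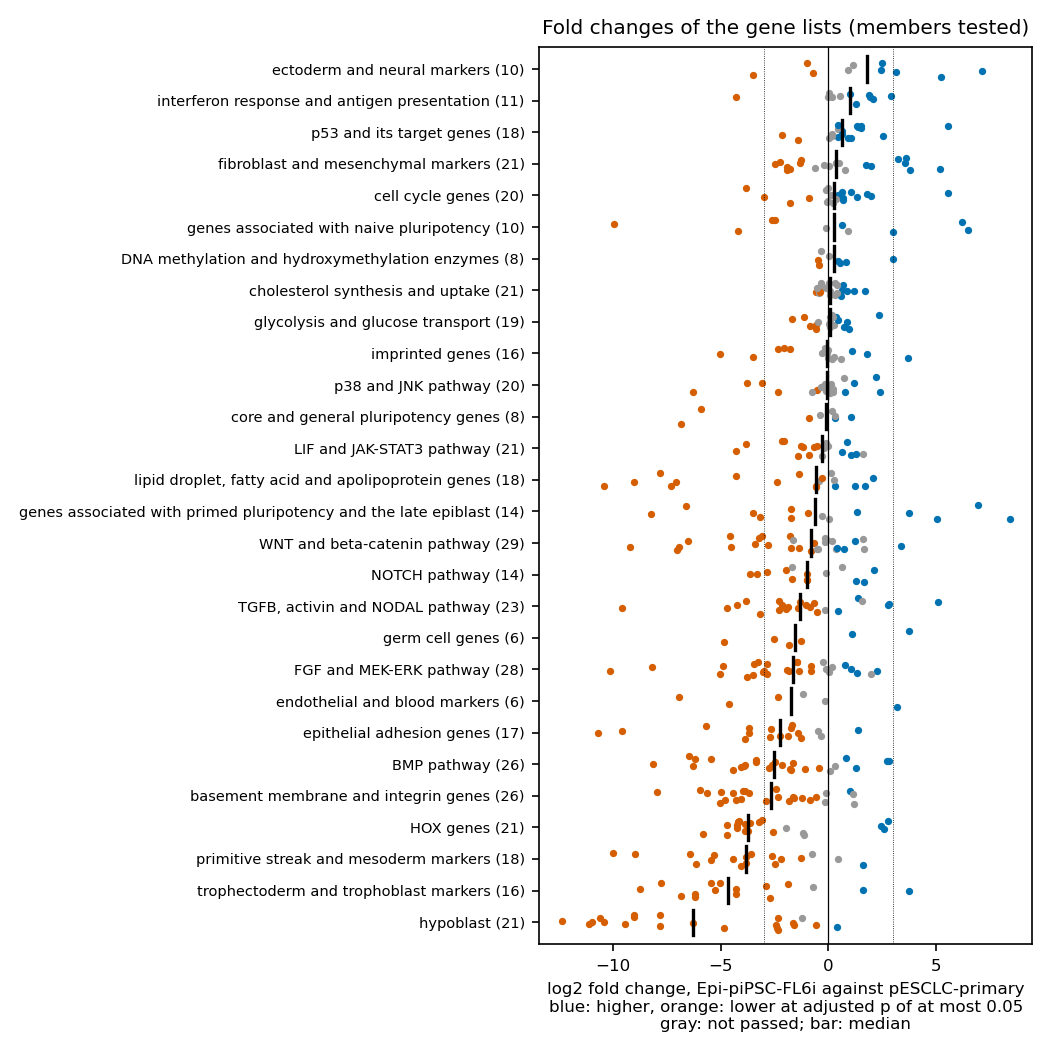
Each point is a gene of a list, placed on the x axis by its log2 fold change in Epi-piPSC-FL6i against pESCLC-primary, with the list and its number of members tested on the y axis. Blue and orange points passed an adjusted p of 0.05 (higher and lower), gray points did not, bars mark medians and dotted lines the DEG limit of 3, and the hypoblast list at the bottom has the lowest median (-6.29).

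The epithelial and basement membrane genes followed the same direction. Of 17 epithelial adhesion genes tested, 14 were lower, 1 was higher and 2 did not pass (median -2.27), and 6 were DEGs, all lower. The higher member was GRHL1 (1.37). GRHL2, a grainyhead factor that maintains epithelial identity, had 1643 and 1691 against 0 in both iPSC lines, at least 566-fold lower (adjusted p = 1.73e-05). CLDN4, a tight junction protein, had 4352 and 6356 against 5.79 and 5.99 (-9.58, SE 0.25), and ESRP2, a splicing factor of epithelia, had 2574 and 2881 against 32.8 and 81.9 (-5.68). EPCAM, an adhesion molecule of epithelia and pluripotent cells, had 6158 and 7098 against 879.5 and 1196 (-2.69, SE 0.16). CDH1, the adhesion molecule of the adherens junction, had 9284 and 11344 against 6937 and 9419, a difference of -0.34 (SE 0.17) that did not pass (adjusted p = 0.131), with overlapping groups. GRHL1 did not pass with all 14 samples in a single fit, without pESCLC-primary replicate 1 or 2 or without Epi-piPSC-FL6i replicate 1 or 2 (adjusted p = 0.224, 0.106, 0.147, 0.062 and 0.195). ESRP2 had a log2 fold change of -5.04 and -6.33 without Epi-piPSC-FL6i replicate 1 and 2.

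Of 26 basement membrane and integrin genes tested, 21 were lower, 1 was higher and 4 did not pass (median -2.68), and 12 were DEGs, all lower. FN1, fibronectin, had 300932 and 380116 normalized counts against 16084 and 15159 (-4.44, SE 0.15, adjusted p = 1.87e-05). Both lines lay far below both outgrowths. COL18A1, a basement membrane collagen, had 43706 and 56021 against 957 and 1011 (-5.65), and ITGA5, the integrin chain that binds fibronectin, had 4233 and 6298 against 169.9 and 145 (-5.03). ITGA6, the laminin-binding integrin chain of stem cells, was the member that was higher, at 729 and 549 against 1193 and 1328 (0.99, SE 0.16). ITGA6 did not pass without Epi-piPSC-FL6i replicate 1 or 2 (adjusted p = 0.0509 and 0.0689).

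Primitive streak and mesoderm markers were mostly lower in the iPSC lines. Of 18 tested, 15 were lower, 1 was higher and 2 did not pass (median -3.82), and 11 were DEGs, all lower. EOMES, a T-box factor of the streak and of extraembryonic tissue, had 5381 and 6221 against 2.90 and 6.99 (-10.02, SE 0.37, adjusted p = 2.08e-05). GSC, the organizer homeobox gene, had 911 and 562 against 0 and 0.999. MIXL1, a homeobox gene of the streak, had 92.5 and 77.6 against 0 in both lines, at least 28.9-fold lower. TBXT (brachyury) had 174 and 28.4 against 0 in both, at least 34.4-fold lower, with most of its reads in outgrowth 1. None of these 4 genes had more than 6.99 normalized counts in a line. KDR, the VEGF receptor of vascular progenitors, had 1295 and 991 against 38.6 and 19 (-5.33). MESP1, a factor of early mesoderm, was the member that was higher, but at low levels (4.92 and 10.9 against 30.9 and 20). MESP1 did not pass with all 14 samples in a single fit, without pESCLC-primary replicate 1 or without Epi-piPSC-FL6i replicate 1 or 2 (adjusted p = 0.17, 0.115, 0.196 and 0.104).

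Genes of the pluripotency network moved in both directions. Of 18 core and general genes, 9 had an identifier and 8 were tested; 3 were lower, 2 were higher and 3 did not pass (median -0.10), with 1 higher on leaving out any of the 4 samples and 0 with all 14 samples in a single fit. POU5F1, SOX2 and MYCL were not analysed here, nor were SOX17 and TET2 of the other lists, and DNMT3L had at most 1 read in each of the 4 samples. NANOG, a homeobox factor of the epiblast, had 287 and 178 normalized counts in the outgrowths and 0.965 and 0.999 in the iPSC lines, which is 1 read in each, a ratio of 237 (95% counting interval, 65.6 to 1956, adjusted p = 0.000111). RefSeq lists 2 loci under this symbol, on chromosomes 1 and 5, so reads shared by near-identical copies make its level uncertain. GDF3, a TGFB-family ligand of pluripotent cells, had 72.8 and 48.1 against 0 in both lines, at least 20.5-fold lower. Both genes, like every DEG, had groups that did not overlap, and their direction was opposite to that of LIN28A. LIN28A, an RNA-binding protein that blocks let-7 processing, was higher at 5185 and 5313 against 10047 and 11449 (1.03, SE 0.09, adjusted p = 0.000349). LIN28B, a paralog of LIN28A, had 2018 and 2044 against 2377 and 2262 and did not pass, nor did TRIM71. LIN28A did not pass with all 14 samples in a single fit (adjusted p = 0.619).

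Naive-associated genes split. Of 10 tested, 4 were higher, 4 were lower and 2 did not pass, and a further 5 were below the filter. ESRRB, an orphan nuclear receptor of naive mouse cells, had 43.3 and 39.4 against 2819 and 3413 (6.20, SE 0.17, adjusted p = 1.7e-05), and KLF4, a Krüppel-like factor, had 30.5 and 6.56 against 1182 and 1641 (6.50, SE 0.65, adjusted p = 0.00047). Both iPSC lines lay above 1000 and both outgrowths below 50 for these genes. TFAP2C, a factor of naive human cells and trophoblast, had 193 and 142 against 1088 and 1608 (2.99), just under the limit for a DEG. TBX3, a T-box repressor, had 2174 and 1844 against 0.965 and 0.999, 1 read in each line (ratio 2045, 95% counting interval 566 to 16889), and SUSD2, a surface marker of naive human cells, had 1625 and 2603 against 81.1 and 152 (-4.20). KLF5 had 319.7 and 416 against 64.7 and 64.9 (-2.48). How many reads at KLF4 and LIN28A came from the human plasmid genes was not tested. KLF5 did not pass with all 14 samples in a single fit (adjusted p = 0.206). KLF4 had a log2 fold change of 7.53 and 5.47 without pESCLC-primary replicate 1 and 2.

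Primed and late epiblast genes also split, with 5 of 14 higher, 7 lower and 2 not passing (4 DEGs each way). POU3F1, a POU factor of the late epiblast and neural progenitors, was at 0 in both outgrowths and at 322 and 366 in the iPSC lines, at least 110.4-fold higher (adjusted p = 4.65e-05). SOX3 had 1.97 and 0 against 206 and 225 (ratio 207, 95% counting interval 57.4 to 1711), and SFRP2, a secreted WNT modulator, had 111 and 50.3 against 1025 and 1012 (3.75). On the other side, ZIC2, a zinc-finger factor, had 4105 and 5513 against 10.6 and 20 (-8.25, SE 0.32) and ZIC5, its neighbor in the genome, had 454 and 752 against 2.90 and 7.99 (-6.63). OTX2, a homeobox factor of the epiblast and forebrain, was lower by less than 1 on the log2 scale at 3565 and 4568 against 1867 and 2283 (-0.97, SE 0.15). OTX2 did not pass with all 14 samples in a single fit or without Epi-piPSC-FL6i replicate 1 (adjusted p = 0.337 and 0.0596). ZIC5 had a log2 fold change of -6.03 and -7.23 without Epi-piPSC-FL6i replicate 1 and 2.

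**Figure D3:**
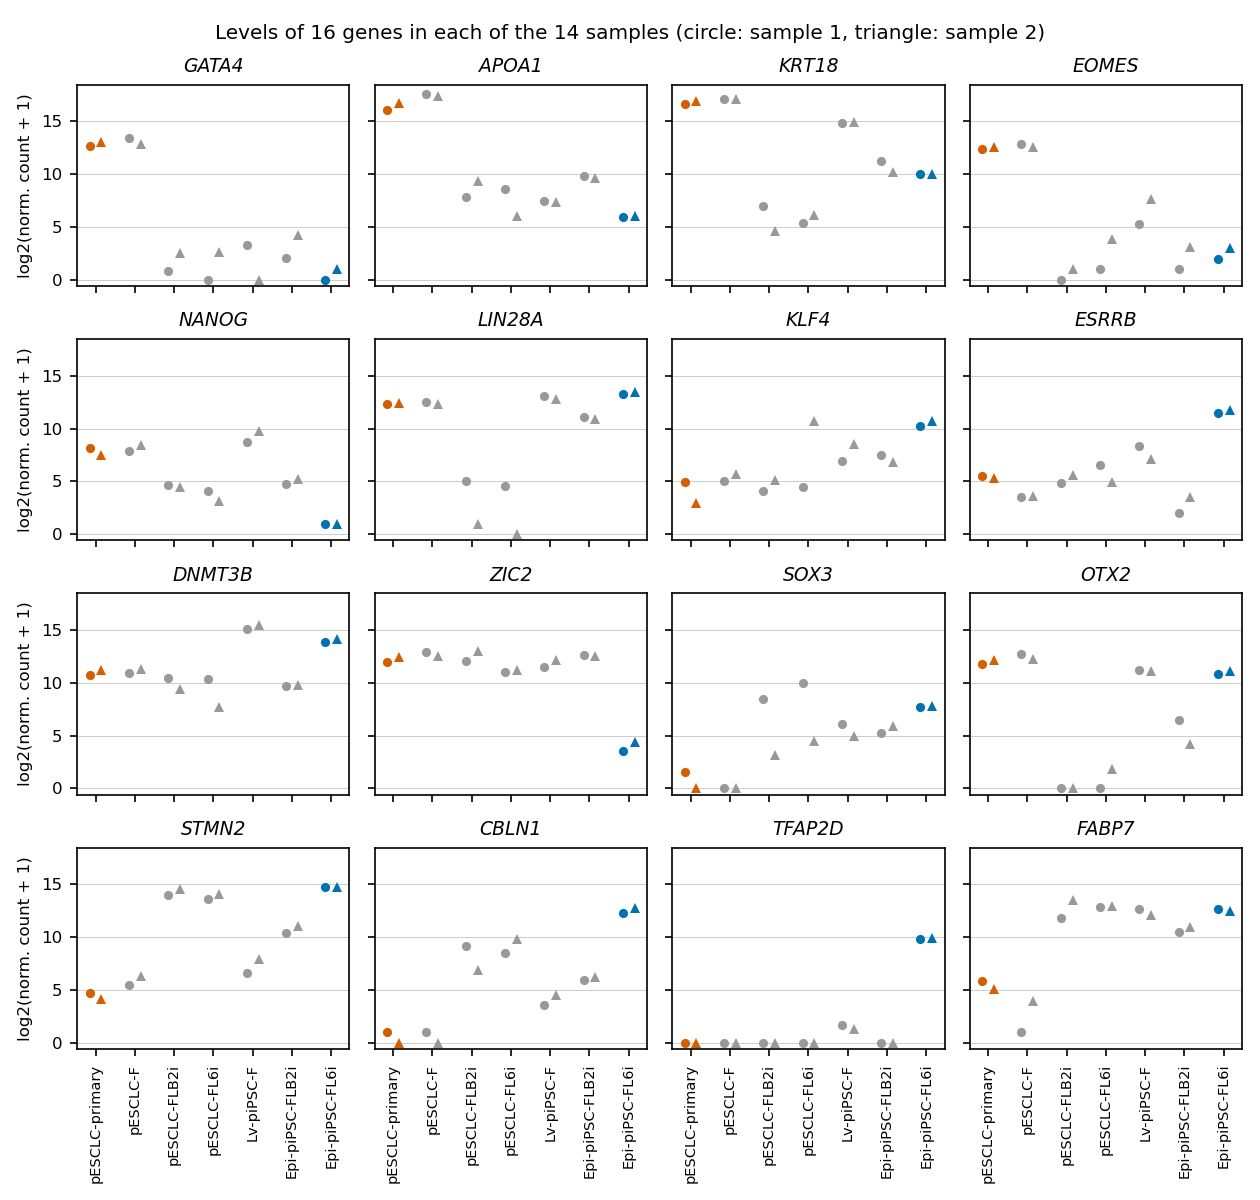
Each panel is a gene, the y axis is log2(normalized count + 1), and the x axis gives the 7 groups of the series with sample 1 as a circle and sample 2 as a triangle (orange, pESCLC-primary; blue, Epi-piPSC-FL6i; gray, the other groups). The orange and blue points lie far apart for GATA4, KLF4, ESRRB and ZIC2 and close together for OTX2, and TFAP2D is near 0 in all groups but Epi-piPSC-FL6i.

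Of the 15 named genes that rose most by the naming rule, each was below 25 normalized counts in both outgrowths. STMN2 (stathmin 2), a regulator of microtubules in growing axons, had 24.6 and 16.4 normalized counts against 28096 and 26938 (10.35, SE 0.19, adjusted p = 6.34e-06). CBLN1, a secreted organizer of cerebellar synapses, had 0.984 and 0 against 4975 and 7015. C1QL2, a secreted C1q-domain protein, was at 0 in both outgrowths and at 3410 and 4140, at least 1212-fold higher. BCAS1, an oligodendrocyte protein, was at 0 against 1611 and 1167, at least 446-fold higher, and TFAP2D, a factor of the AP-2 family, was at 0 against 894 and 952, at least 296-fold higher. HELT, a basic helix-loop-helix factor of midbrain neurons, had 0 and 1.09 against 1104 and 1228. The 2 lines were close to each other for STMN2, TFAP2D and HELT, and less so for CBLN1, C1QL2 and BCAS1. GRIK1, a kainate receptor subunit, had 4.92 and 3.28 against 3199 and 3173 (9.31), CPLX2, a synaptic vesicle protein, had 11.8 and 3.28 against 4959 and 4784 (9.36), and ELAVL3, a neuronal RNA-binding protein, had 4.92 and 0 against 2104 and 1959 (9.71). ABTB3, LRP11, LRRTM1, POU3F1 and CRHR1 were also among the 15, with iPSC values between 322 and 2418. Chosen by size of change, these genes are a description of the extremes. CPLX2 had a log2 fold change of 10.15 and 8.57 without pESCLC-primary replicate 1 and 2. ELAVL3 had a log2 fold change of 10.99 and 8.42 without pESCLC-primary replicate 1 and 2.

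The ectoderm and neural marker list had 10 members tested, with 5 higher, 3 lower and 2 not passing (median 1.82), and 3 were higher without Epi-piPSC-FL6i replicate 1. With all 14 samples in a single fit 0 were lower, and 1 was lower without Epi-piPSC-FL6i replicate 2. The median was 2.43 without pESCLC-primary replicate 1 and 0.94 without pESCLC-primary replicate 2. FABP7, a lipid-binding protein of radial glia, had 56.1 and 32.8 against 6701 and 5768 (7.15, SE 0.26, adjusted p = 2.08e-05), and TUBB3, neuronal tubulin, had 1925 and 1797 against 15496 and 17179 (3.13, SE 0.09). PAX6, the eye and neural tube regulator, had 4.92 and 0 against 206 and 40 (5.24, SE 1.08), and line C10 was the higher of the iPSC lines. NCAM1, a neural adhesion molecule, had 604 and 744 against 4000 and 3553 (2.49). NES (nestin) had 3389 and 3084 against 2412 and 1565 (-0.73), CRABP2 had 3251 and 1576 against 1161 and 1145 (-0.97), and DLK1 had 164 and 186 against 9.65 and 22 (-3.49), all lower. PAX6 did not pass without pESCLC-primary replicate 2 or without Epi-piPSC-FL6i replicate 1 (adjusted p = 0.0896 and 0.0919). NES did not pass with all 14 samples in a single fit, without pESCLC-primary replicate 1 or 2 or without Epi-piPSC-FL6i replicate 2 (adjusted p = 0.174, 0.183, 0.141 and 0.0909). CRABP2 did not pass with all 14 samples in a single fit or without Epi-piPSC-FL6i replicate 1 or 2 (adjusted p = 0.57, 0.216 and 0.223). DLK1 did not pass with all 14 samples in a single fit (adjusted p = 0.0599). PAX6 had a log2 fold change of 6.52 and 3.96 without pESCLC-primary replicate 1 and 2, and of 4.07 and 6.41 without Epi-piPSC-FL6i replicate 1 and 2.

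Among the genes that fell most by the same rule were GATA4, SLC28A3, SPINT2, FOXA2, SLC3A1, CER1, HNF4A, CHRM2, GRHL2, APOA1, FGF17, EOMES, CBLN4 and TBX3. CER1, a secreted inhibitor of NODAL and BMP made by anterior visceral endoderm, had 2481 and 1855 against 0 in both lines, at least 736-fold lower. SLC28A3, a nucleoside transporter, had 3613 and 9646 against 0 and 0.999, SPINT2, an inhibitor of serine proteases, had 6359 and 6719 against 0.965 and 3.0 (-11.19), and SLC3A1, a subunit of an amino acid transporter, had 2812 and 3524 against 0.965 and 0. CHRM2, a muscarinic receptor, had 1506 and 2403 against 0 in both, at least 663-fold lower, while CBLN4, a relative of the risen CBLN1, had 1490 and 2068 against 0 and 2.0.

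Fibroblast and mesenchymal markers, which mark both the source of the iPSC and the feeder cell type, moved in both directions. Of 21 tested, 7 were higher, 7 were lower and 7 did not pass (median 0.36), with 3 and 4 lower without Epi-piPSC-FL6i replicate 1 or 2, and with 3 higher and 0 lower when all 14 samples entered a single fit. The DEGs of the list all went up, with 5 higher and 0 lower. They were 23.8% of the members tested, against 4.51% higher DEGs over all genes tested. With all 14 samples in a single fit 2 were higher DEGs. The summed normalized counts of the list were 34703 and 26023 in the outgrowths and 41093 and 44497 in the iPSC lines. LOX, which crosslinks collagen, had 89.5 and 39.4 against 2298 and 2186 (5.21, SE 0.37, adjusted p = 0.000144), and FBN1, fibrillin, had 278 and 287 against 3295 and 3737 (3.63, SE 0.11). COL1A1 had 2053 and 1318 against 5575 and 7468 (1.97) and VIM had 4892 and 4252 against 16315 and 14721 (1.76). COL6A1 (-2.46), DCN (-2.24) and COL5A1 (-1.93) were lower. The part of feeder RNA in these values was not tested. Of 6 endothelial and blood markers tested, 3 were lower, 1 was higher and 2 did not pass. CDH5 (VE-cadherin) had 227 and 66.7 against 0 in both lines, at least 49.9-fold lower, and RUNX1 had 46.2 and 77.6 against 458 and 694 (3.21). Of 6 germ cell genes tested, PRDM1, a repressor that specifies germ cells, had 2434 and 2710 against 99.4 and 78.9 (-4.84), TDRD12, a piRNA pathway protein, had 114 and 59 against 1239 and 1020 (3.76), and KIT had 3261 and 2584 against 5553 and 6827 (1.08), while the other 3 were lower. The 4 lower members became 2 without pESCLC-primary replicate 2 and without either Epi-piPSC-FL6i sample. With a minimum of 50 normalized counts the median of the germ cell genes left was 1.08, against -1.53 with a minimum of 10. COL1A1, COL6A1, DCN, COL5A1, RUNX1 and KIT did not pass with all 14 samples in a single fit (adjusted p = 0.672, 0.143, 0.475, 0.0938, 0.252 and 0.0598).

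HOX genes differed between the outgrowths themselves. Of 34 HOX genes with an identifier, 21 were tested; 15 were lower, 3 were higher and 3 did not pass (median -3.76, or -3.63 at the bounds), and 14 were DEGs, all lower. The summed normalized counts over the 34 genes were 3752 in pESCLC-primary 1 and 510.5 in pESCLC-primary 2, against 1250 and 1221 in the iPSC lines, and 29 of the 34 were higher in outgrowth 1 than in outgrowth 2. Relative to outgrowth 2 alone the summed level in the iPSC lines was therefore higher, not lower, with only the HOXD cluster higher. In the iPSC lines 1178 and 1109 of the summed counts came from HOXD, against 102 in outgrowth 2. The sums of the HOXA, HOXB and HOXC clusters were lower in both lines than in outgrowth 2. They were 133 against 17.4 and 24.97 (HOXA), 201 against 9.65 and 32.96 (HOXB) and 74.3 against 45.4 and 53.9 (HOXC). HOXD3 had 157 and 30.6 against 514 and 456 (2.78, SE 0.70), HOXD4 had 77.7 and 12 against 190.2 and 194 (2.59), and HOXD8 had 186 and 35 against 444 and 438 (2.43). With a minimum of 50 normalized counts in place of 10, 1 HOX gene was lower and the median of those left was 2.51. Without Epi-piPSC-FL6i replicate 1 or replicate 2, 3 and 5 HOX genes were lower and 0 were higher, and without pESCLC-primary replicate 1 the number of lower DEGs was 5. The HOX median was -2.13 and -4.58 without pESCLC-primary replicate 1 and 2 and -3.06 without Epi-piPSC-FL6i replicate 1. HOXA9 had 471 and 14.2 against 2.90 and 4.0, with an adjusted p of 0.0497. HOXD3, HOXD4, HOXD8 and HOXA9 did not pass without Epi-piPSC-FL6i replicate 1 or 2 (adjusted p = 0.159 and 0.143 for HOXD3, 0.203 and 0.207 for HOXD4, 0.194 and 0.193 for HOXD8, 0.258 and 0.229 for HOXA9). HOXD3 had a log2 fold change of 3.94 and 1.61 without pESCLC-primary replicate 1 and 2. HOXD4 had a log2 fold change of 3.89 and 1.29 without pESCLC-primary replicate 1 and 2. HOXD8 had a log2 fold change of 3.62 and 1.24 without pESCLC-primary replicate 1 and 2.

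**Figure D4:**
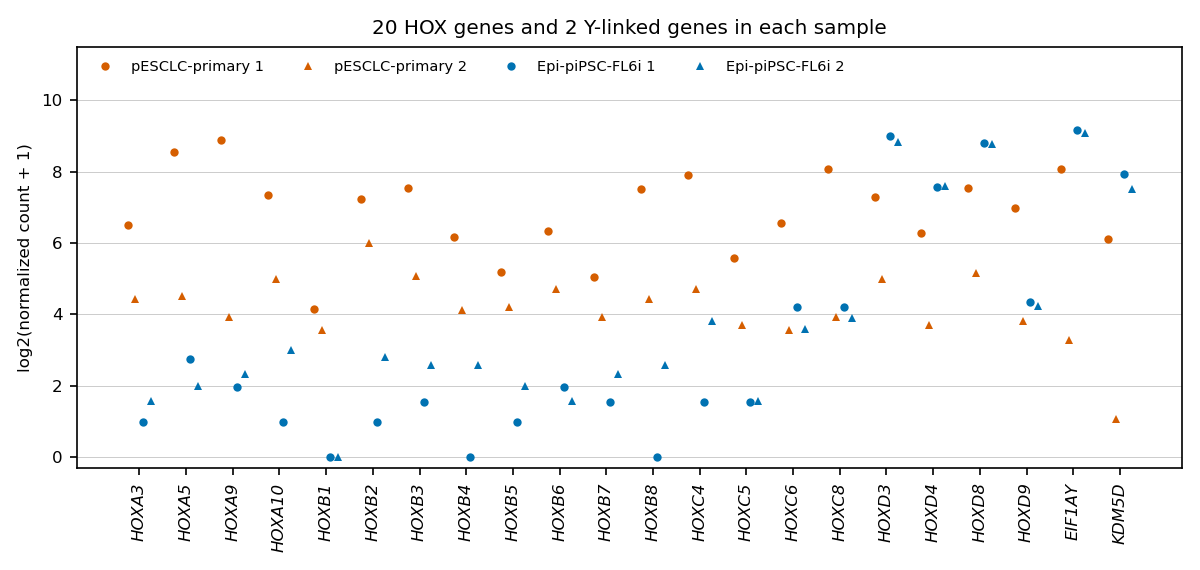
The y axis gives log2(normalized count + 1) of 20 of the 21 HOX genes tested and 2 Y-linked genes (x axis) in each of the 4 samples (orange, pESCLC-primary; blue, Epi-piPSC-FL6i; circles, sample 1; triangles, sample 2). pESCLC-primary 1 lies above pESCLC-primary 2 for every gene drawn, and the iPSC lines lie above both outgrowths at HOXD3, HOXD4, HOXD8 and both Y-linked genes.

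Other genes also separated the pESCLC-primary duplicates. Among genes that reached 50 normalized counts in a duplicate, 39 differed by at least 8-fold between the outgrowths, 36 of them higher in outgrowth 1, against 5 between the iPSC lines, all higher in line C10. The named genes with the largest gaps in the outgrowths were DNAH2, an axonemal dynein (2007 against 5.47), HOXC9 (96.4 against 0), HOXA7 (185 against 1.09), GAD1 (74.8 against 0), FOXB1 (59.0 against 0) and ITIH2 (0.984 against 97.3). Those in the iPSC lines were ISYNA1, an enzyme of inositol synthesis (233 against 6.99), CHAC1, a glutathione-degrading enzyme (71.4 against 3.00), and REC8, a meiotic cohesin (304 against 28.0). The Y-linked genes EIF1AY and KDM5D had 269.5 and 8.74 and 68.9 and 1.09 normalized counts in the outgrowths, with outgrowth 2 near 0, and 577 and 548 and 242 and 181 in the iPSC lines. They did not pass the test in limma (adjusted p = 0.0771 and 0.0565), and XIST was not analysed here. Their log2 fold changes were 5.85 and 6.65 without pESCLC-primary replicate 1, and 1.06 and 1.59 without pESCLC-primary replicate 2. A fit with 1 outgrowth left takes no spread from the outgrowths, so it does not decide whether the groups differ.

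The signaling lists were read against the components of the FL6i medium. The outgrowth medium also differed in its serum, base and FGF2 level, and the part of each component was not tested. In the FGF and MEK-ERK list, 19 of 28 members tested were lower, 4 were higher and 5 did not pass (median -1.65), with 9 lower DEGs. The ligands FGF17 (1445 and 920.4 against 0 in both, at least 401-fold lower) and FGF8 (309 and 275 against 0 in both, at least 99.2-fold lower) fell, and so did the immediate and feedback targets of ERK: ETV4 (1681 and 1261 against 32.8 and 56.9, -5.04), EGR1 (291 and 51.4 against 1.93 and 5.0, -4.88), SPRY1 (393 and 119 against 26.1 and 7.99, -3.80), DUSP6 (2475 and 1773 against 138 and 249.7, -3.49) and DUSP5 (650.2 and 703 against 57 and 65.9, -3.44). FGFR3 had 4159 and 4779 against 685 and 435 (-3.03), FGFR1 had 6614 and 6767 against 3900 and 3868 (-0.78), and FGFR2 did not pass. DUSP4 (1079 and 1059 against 2997 and 2403, 1.33) and ETV1 (54.1 and 44.8 against 240.4 and 238, 2.26) were higher. EGR1 did not pass with all 14 samples in a single fit or without Epi-piPSC-FL6i replicate 1 or 2 (adjusted p = 0.0611, 0.0779 and 0.0534). SPRY1 did not pass without pESCLC-primary replicate 1 or without Epi-piPSC-FL6i replicate 2 (adjusted p = 0.076 and 0.083). FGFR1 did not pass with all 14 samples in a single fit (adjusted p = 0.144). EGR1 had a log2 fold change of -3.64 and -6.12 without pESCLC-primary replicate 1 and 2. SPRY1 had a log2 fold change of -2.94 and -4.66 without pESCLC-primary replicate 1 and 2, and of -4.60 and -3.01 without Epi-piPSC-FL6i replicate 1 and 2.

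In the TGFB, activin and NODAL list, 16 of 23 were lower, 5 were higher and 2 did not pass (median -1.30), with 10 lower when all 14 samples entered a single fit, and with 3 and 2 higher without Epi-piPSC-FL6i replicate 1 or 2. LEFTY2, a NODAL target and inhibitor, had 2404 and 2382 normalized counts against 3.86 and 0.999 (-9.58, SE 0.46, adjusted p = 4.53e-05). NODAL itself had 3856 and 4372 against 350.5 and 604 (-3.15), SMAD7, a feedback inhibitor, had 649 and 695 against 29.9 and 40 (-4.24), and TGFB1 had 331 and 438 against 26.1 and 6.99 (-4.70). TGFB2, another ligand, had 67.9 and 23 against 1198 and 1666 (5.12), and TGFBR2, the type II receptor, had 77.7 and 59 against 453 and 480.5 (2.77). So ligand genes went both ways while the named targets were lower. LEFTY2 had a log2 fold change of -10.23 and -8.94 without Epi-piPSC-FL6i replicate 1 and 2. TGFB1 had a log2 fold change of -5.58 and -3.82 without Epi-piPSC-FL6i replicate 1 and 2. TGFB2 had a log2 fold change of 5.88 and 4.36 without pESCLC-primary replicate 1 and 2.

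In the BMP list, 20 of 26 were lower, 4 were higher and 2 did not pass (median -2.55), with 11 lower DEGs, and 2 were higher without either Epi-piPSC-FL6i sample and 1 with all 14 samples in a single fit. The ligands BMP5 (379 and 216 against 0 in both, at least 101-fold lower), BMP7 (2155 and 1948 against 14.5 and 33, -6.48), BMP2 (4507 and 5504 against 85 and 146, -5.47) and BMP4 (1544 and 1649 against 119.7 and 73.9, -4.07) fell. The direct targets ID1 (3511 and 3775 against 268 and 216, -3.91, SE 0.14), ID2 (-3.87) and ID3 (-3.38) fell with them. Both lines were below both outgrowths for each of these genes, as for every lower DEG. Secreted inhibitors differed, since NOG had 332 and 318 against 7.72 and 0.999 (-6.29) whereas NBL1 had 193 and 132 against 1064 and 1214 (2.82). NOG had a log2 fold change of -7.35 and -5.22 without Epi-piPSC-FL6i replicate 1 and 2.

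In the WNT list, 15 of 29 were lower, 4 were higher and 10 did not pass (median -0.82), and 1 was higher without either Epi-piPSC-FL6i sample and 0 with all 14 samples in a single fit. DKK1, a secreted inhibitor, had 919 and 743 against 0.965 and 0, FZD5, a receptor, had 7840 and 12517 against 78.2 and 68.9 (-7.06), and the ligands WNT11 (989 and 733 against 5.79 and 5.99, -6.95) and WNT6 (526 and 553 against 2.90 and 7.99, -6.51) were lower. LGR5, a receptor and target, had 1730 and 1438 against 91.7 and 47.9 (-4.55). AXIN2, the usual readout of beta-catenin, had 598 and 407 against 706 and 548, a difference of 0.33 (SE 0.23) that did not pass (adjusted p = 0.247), with overlapping groups. Of the genes of the inhibited kinase GSK3, GSK3A had 1723 and 1629 against 2162 and 2231 (0.39, SE 0.09, adjusted p = 0.0107) and was higher, while GSK3B did not pass. GSK3A did not pass with all 14 samples in a single fit or without Epi-piPSC-FL6i replicate 1 or 2 (adjusted p = 0.182, 0.0874 and 0.108). WNT6 had a log2 fold change of -5.91 and -7.12 without Epi-piPSC-FL6i replicate 1 and 2.

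In the LIF and JAK-STAT3 list, 10 of 21 were lower, 4 were higher and 7 did not pass (median -0.28), and without Epi-piPSC-FL6i replicate 1 or 2 the lower members numbered 6 and 5 and the higher members 2 and 1. PIM3, a STAT3 target kinase, had 526 and 699.6 against 31.9 and 29 (-4.28), SOCS1 had 529 and 743 against 39.6 and 46 (-3.85), and SOCS3, the feedback inhibitor of this receptor, had 471 and 650.4 against 303 and 294 (-0.89, SE 0.19). STAT3 was higher at 933 and 925 against 1398 and 1479 (0.63), and the receptor gene IL6ST did not pass. In the p38 and JNK list, 5 of 20 were lower, 4 were higher and 11 did not pass (median -0.08), with 2 higher without Epi-piPSC-FL6i replicate 1. MAPK13, p38 delta, had 718 and 728 against 6.76 and 9.99 (-6.29), and MAPK11, p38 beta, had 70.8 and 77.6 against 4.83 and 4.0 (-3.80). GADD45A had 969 and 1232 against 139 and 119.9 (-3.07). MAPK14 and MAPK8, the genes of the inhibited kinases, did not pass. The log2 fold change of MAPK14 was 0.20, and 0.39 without pESCLC-primary replicate 1. In the NOTCH list, 8 of 14 were lower, 3 were higher and 3 did not pass (median -0.99), with 1 higher without either Epi-piPSC-FL6i sample, from HEY2 (-3.66) to JAG1, a ligand (359 and 602 against 1996 and 2055, 2.12). STAT3 did not pass with all 14 samples in a single fit or without Epi-piPSC-FL6i replicate 2 (adjusted p = 0.266 and 0.0517). SOCS3 did not pass with all 14 samples in a single fit or without Epi-piPSC-FL6i replicate 1 or 2 (adjusted p = 0.241, 0.0944 and 0.104). HEY2 did not pass without pESCLC-primary replicate 1 or 2 (adjusted p = 0.0566 and 0.0561). HEY2 had a log2 fold change of -2.83 and -4.49 without Epi-piPSC-FL6i replicate 1 and 2.

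**Figure D5:**
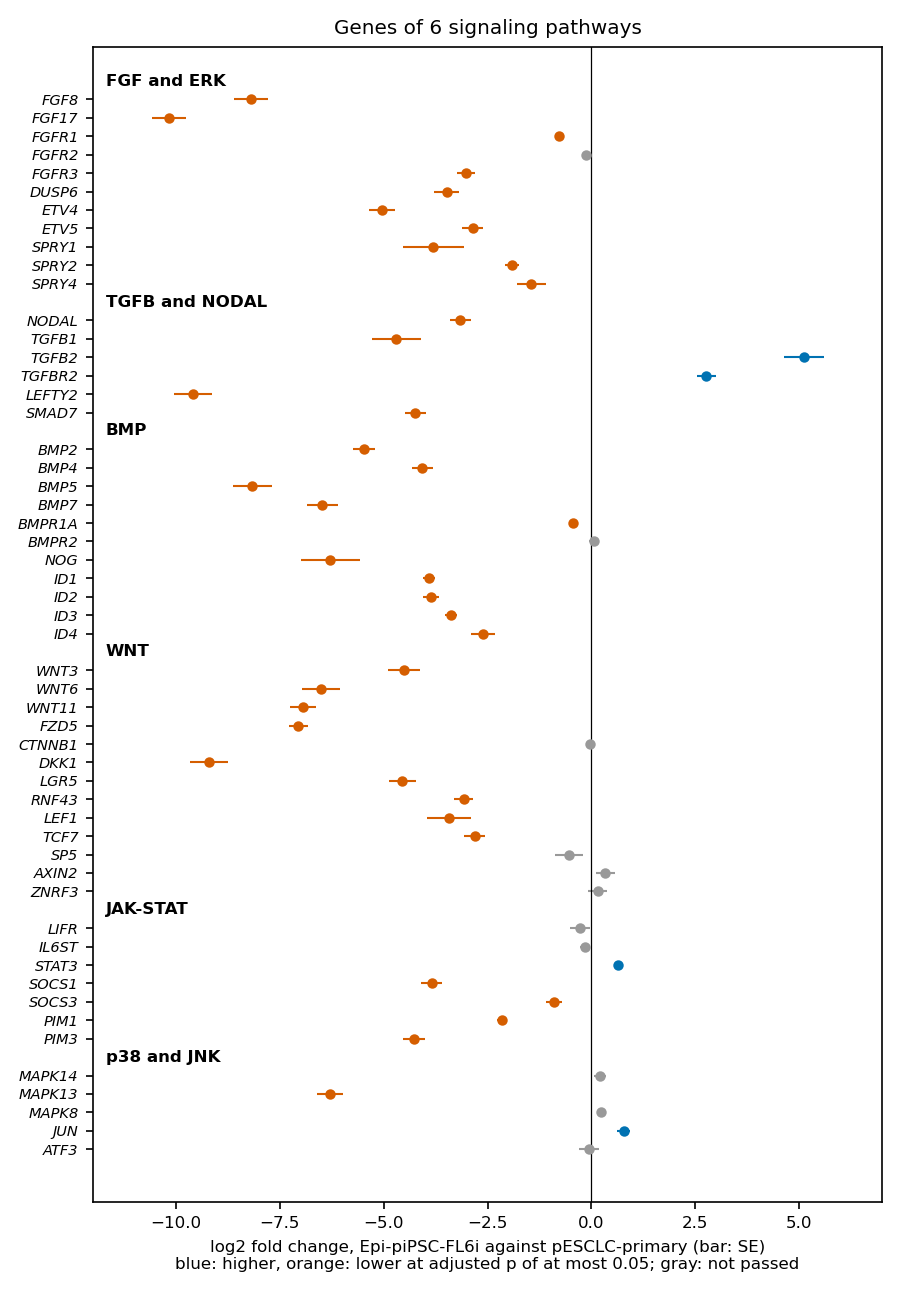
Points give the log2 fold change in Epi-piPSC-FL6i against pESCLC-primary (x axis) of genes of 6 signaling pathways (y axis), and bars give the standard error. Blue and orange points passed an adjusted p of 0.05 (higher and lower) and gray points did not, and fitted changes of genes at 0 reads in a group (such as FGF8 and BMP5) are not bounds. Among the targets, DUSP6, LEFTY2, ID1 and SOCS3 lie to the left of 0 and AXIN2 near 0.

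Of 18 p53 genes tested, 12 were higher, 2 were lower and 4 did not pass (median 0.65), and without Epi-piPSC-FL6i replicate 1 or 2 the higher members numbered 3 and 5, and they numbered 4 with all 14 samples in a single fit. CDKN2A, which encodes the INK4A and ARF tumor suppressors, had 0 and 3.28 against 128 and 74.9, a ratio of 65.3 (95% counting interval, 22.3 to 317, adjusted p = 0.00159). ZMAT3, a p53-induced RNA-binding protein, had 326 and 573 against 2885 and 2180 (2.53). SESN1 (-1.43) and GDF15 (-2.13) were lower. Of 20 cell cycle genes tested, 9 were higher, 4 were lower and 7 did not pass (median 0.29), with 5 higher without either Epi-piPSC-FL6i sample and 1 higher with all 14 samples in a single fit. CDK6 had 308 and 355 against 29 and 17 (-3.84) and CCND1 (cyclin D1) had 1983 and 1931 against 231 and 264 (-2.98), both lower. GDF15 did not pass with all 14 samples in a single fit, without pESCLC-primary replicate 1 or 2 or without Epi-piPSC-FL6i replicate 1 or 2 (adjusted p = 0.0711, 0.0662, 0.233, 0.0797 and 0.26). GDF15 had a log2 fold change of -2.87 and -1.40 without pESCLC-primary replicate 1 and 2, and of -2.85 and -1.41 without Epi-piPSC-FL6i replicate 1 and 2.

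The DNA methylation list held 8 genes tested, 4 higher, 2 lower and 2 not passing (median 0.25). The higher members numbered 2 without Epi-piPSC-FL6i replicate 2 and 1 with all 14 samples in a single fit, and the lower members 1 without either pESCLC-primary sample and 0 without either Epi-piPSC-FL6i sample or with all 14 samples in a single fit. DNMT3B, a de novo DNA methyltransferase, had 1776 and 2427 normalized counts against 15249 and 18038 (3.00, SE 0.17, adjusted p = 7.2e-05), a fold change that missed the DEG limit of 3 by less than the rounding. UHRF1, which recruits DNMT1, had 3420 and 3394 against 5875 and 6312 (0.84), and TET3 had 911 and 878 against 610.2 and 680.3 (-0.47). TET1 did not pass in limma (adjusted p = 0.0971). Its log2 fold change was -0.33, and -0.54 without pESCLC-primary replicate 2. Of 16 imprinted genes tested, 3 were higher, 5 were lower and 8 did not pass, with 3 lower without either Epi-piPSC-FL6i sample, and with 1 higher and 2 lower with all 14 samples in a single fit. PEG10, a placental gene expressed from the paternal allele, had 2715 and 2127 against 29177 and 34074 (3.71, SE 0.14), and PHLDA2, a growth suppressor of the placenta, had 40.3 and 77.6 against 1.93 and 0 (ratio 60, 95% counting interval 16.6 to 496). UHRF1 and PEG10 did not pass with all 14 samples in a single fit (adjusted p = 0.508 and 0.0954). TET3 did not pass with all 14 samples in a single fit, without pESCLC-primary replicate 1 or 2 or without Epi-piPSC-FL6i replicate 1 or 2 (adjusted p = 0.403, 0.0585, 0.051, 0.128 and 0.072).

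No gene of glycolysis or of cholesterol synthesis was a DEG. Of 19 genes of glycolysis and glucose transport tested, 6 were higher, 5 were lower and 8 did not pass (median 0.08). ENO2, a neuronal enolase, had 254 and 156 against 1287 and 815 (2.36). Of 21 genes of cholesterol synthesis and uptake, 6 were higher, 3 were lower and 12 did not pass (median 0.09). In the cholesterol list 2 were higher and 0 were lower without either Epi-piPSC-FL6i sample, and without pESCLC-primary replicate 1 there 6 were lower. In the glycolysis list 3 were higher without Epi-piPSC-FL6i replicate 1, 3 were lower without either pESCLC-primary sample, 2 were lower without Epi-piPSC-FL6i replicate 2, and 2 were higher and 2 lower with all 14 samples in a single fit. HMGCS1 had 3134 and 3968 against 11220 and 11626 (1.70). Of 11 interferon response genes tested, 6 were higher, 1 was lower and 4 did not pass (median 1.01), with 3 and 2 higher without Epi-piPSC-FL6i replicate 1 or 2 and 2 higher with all 14 samples in a single fit. IRF7 had 172 and 200 against 17.4 and 4.0 (-4.28), and STAT2 had 102 and 132 against 467 and 532 (2.09). IRF7 did not pass without pESCLC-primary replicate 2 (adjusted p = 0.0562). IRF7 had a log2 fold change of -5.22 and -3.34 without Epi-piPSC-FL6i replicate 1 and 2.

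Some genes were on in only 1 of the groups. With on defined as at least 100 normalized counts in both samples and off as at most 3 reads in each sample of the other group, 90 genes were on in pESCLC-primary only and 44 in Epi-piPSC-FL6i only. Of the 90, 34 had 0 reads in both iPSC lines, with lower bounds on the fold of 39.3 to 736, and of the 44, 15 had 0 reads in both outgrowths, with bounds of 38.4 to 1212. Among the 90, 68 also reached 100 in both samples of pESCLC-F, passaged outgrowths in the same F medium, 8 in both of Epi-piPSC-FLB2i, 7 in both of Lv-piPSC-F, 4 in both of pESCLC-FLB2i and 2 in both of pESCLC-FL6i. Among the 44, none reached it in both pESCLC-F samples, against 12 in pESCLC-FL6i, 10 in pESCLC-FLB2i, 7 in Epi-piPSC-FLB2i and 5 in Lv-piPSC-F. A gene high in only 1 sample of a pair is not counted, such as SOX3 with a mean of 507 in pESCLC-FL6i, so sharing is understated where a pair differs. The share of all genes that reached 100 in these groups was not computed, so these counts are a description only. Across chromosomes, the median log2 fold change of genes placed by RefSeq ranged from -0.23 (chromosome 12) to 0.15 (chromosome 15) for the autosomes and was 0.03 for chromosome X, and the share of DEGs ranged from 9.19% to 16.3% over these chromosomes. The 13 mitochondrial genes had a median of 0.74.

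Epi-piPSC-FL6i was next set against the other iPSC line made with the same plasmids. Epi-piPSC-FLB2i is line B5 at passages 9 and 12, grown with LIF, FGF2, BMP4, a GSK3 inhibitor and a TGFB inhibitor, so line and medium cannot be told apart. Of 14252 genes tested, 1101 (7.73%) were DEGs, 460 (3.23%) higher and 641 (4.50%) lower in Epi-piPSC-FL6i, and 725 were DEGs with a pseudocount of 5. HSD17B2, a steroid dehydrogenase, had 0 and 0.922 in the FLB2i samples against 2155 and 2727, and HELT had 0 in both against 1104 and 1228, at least 397-fold higher. C1QL2 had 1.03 and 7.38 against 3410 and 4140 (log2 fold change 9.83). WNT8A, a ligand of the primitive streak, had 6371 and 5797 against 0 and 5.0 (-11.28), and HOXB1, HOXA5 and HOXA9 were among the others that fell most, with HOXA5 at 4033 and 3691 against 5.79 and 3.0 (-9.53). The summed HOX counts of the FLB2i samples were 23418 and 21656. Several genes that separated Epi-piPSC-FL6i from the outgrowths separated it from this line too: ESRRB had 3.10 and 10.1 (8.84), KLF4 181 and 115 (3.26), DNMT3B 812 and 868 (4.30) and ZIC2 6406 and 5933 (-8.63) in the FLB2i samples. OTX2 had 85.9 and 17.5 (5.69) and CDH1 had 1452 and 1231 (2.60), both higher in Epi-piPSC-FL6i.

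pESCLC-FL6i shares the medium but came from an embryo. Both samples are line C2, at passages 3 and 9, moved from F to FL6i medium. They stood apart from each other, with 15179200 and 6193659 reads on genes and 165 and 155568 normalized counts of the fibroblast collagen COL1A1. Of 14452 genes tested, 960 (6.64%) were DEGs, 257 (1.78%) higher and 703 (4.86%) lower. Without Epi-piPSC-FL6i replicate 1 or without Epi-piPSC-FL6i replicate 2, 0 genes were DEGs by limma, with 1859 and 1726 genes at an unadjusted p under 0.05, while 2115 were without pESCLC-FL6i replicate 1, and DESeq2 called 1473. HSD17B2 was at 0 in both pESCLC-FL6i samples against 2155 and 2727, at least 444-fold higher, and ZSCAN10, a zinc-finger partner of the core pluripotency factors, was at 0 against 915 and 1112, at least 184-fold higher. LIN28A had 23.1 and 0 against 10047 and 11449 (11.09), OTX2 had 0 and 2.62 against 1867 and 2283, and MYO1A, a brush border myosin, had 19.9 and 0 against 4312 and 4350 (9.89). NSG2, SYT4 and SEZ6, genes known from neurons, were lower, with NSG2 at 1939 and 11980 against 3.86 and 0 (-11.09), as were HOXB8 and HOXA5. STMN2, which separated the iPSC lines from the outgrowths, had 12620 and 17587 against 28096 and 26938. It did not pass here in limma (adjusted p = 0.134), but did by DESeq2 (0.036). STMN2 passed without either pESCLC-FL6i sample, but such a fit takes no spread from that pair and does not decide the question. CDH1 had 18.9 and 83.8 against 6937 and 9419 (7.62, SE 0.78).

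Lv-piPSC-F are iPSC made with lentiviral vectors and grown in a medium also called F, which supplies FGF2 like that of the outgrowths but in another base medium and with serum replacement in place of serum. Their 2 samples carry different codes, ID6_FGF2 with no passage given and M1690-A-3-p46 at passage 46. These samples had 17411166 and 58878377 reads on genes and 46.2 and 11309 normalized counts of COL1A1. Of 13988 genes tested, 806 (5.76%) were DEGs, 454 (3.25%) higher and 352 (2.52%) lower in Epi-piPSC-FL6i. Without Epi-piPSC-FL6i replicate 1 or without Epi-piPSC-FL6i replicate 2, 0 genes were DEGs by limma, with 2749 and 2735 genes at an unadjusted p under 0.05, and leaving out Lv-piPSC-F replicate 2 gave 1473. ZNF286A (0 in both against 690.3 and 769, at least 336-fold higher), SOX11 (0 and 7.31 against 1386 and 1725, 9.07), LRRTM1, TMEM132E and ISLR2 rose most, and SPINT2, TSTD1, NANOG, CLDN4 and ZIC2 fell most. NANOG had 418 and 847 in the Lv-piPSC-F samples and 1 read in each Epi-piPSC-FL6i line, a ratio of 644 (95% counting interval, 178 to 5317). CLDN4 had 1371 and 2876 against 5.79 and 5.99 (-8.17), KRT18 had 28622 and 31265 against 1038 and 1019 (-4.86, SE 0.10), and CDH1 had 25547 and 16469 against 6937 and 9419 (-1.34). DNMT3B had 35581 and 47300 against 15249 and 18038 (-1.31), so it was lower here although it was higher than in the outgrowths. The 4 comparisons share the Epi-piPSC-FL6i samples and are not independent of each other.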

How the data were processed

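Messenger RNA was sequenced in 14 samples of 7 groups, 2 samples a group, and groups were taken from the sample labels. Per the labels and the study's methods, the authors used a stranded mRNA kit, TopHat2 2.1.0, the pig genome Sscrofa11.1, HTSeq at default settings and DESeq2, and the annotation release was not given in the sources used here. The deposited signal is a normalized count per gene: the authors scaled each library with a DESeq2 size factor estimated from the 14 samples together. All values above 0 (100% in each sample, tolerance 0.01) were whole multiples of the value of 1 read, so reads were recovered for the count tests. Default HTSeq counting drops reads that match several places, which lowers genes with near-identical copies, and reads from the mouse feeders or the human plasmids were not separated.

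Genes that reached 10 normalized counts in 2 or more of a comparison's 4 samples were tested on log2(normalized count + 1) with limma 3.58.1 (trended variance, R 4.3.3), which understates the change of low genes, and p-values were adjusted over all genes tested by the Benjamini-Hochberg method. A fold against a group at 0 reads is a lower bound set at 3 reads per library, and where a group held 1 to 3 reads the ratio is given with its exact 95% counting interval, which covers counting error only. Each comparison was fitted on its own 4 samples. The alternatives were pseudocounts of 0.1 and 5, no filter, a minimum of 50, a block on the replicate number, a single fit on all 14 samples, other size factors, TMM, DESeq2 1.42.0, edgeR 4.0.16, leaving out each sample, and a fold limit of 3 in place of a log2 limit of 3. The scripts were tested on simulated data. Replicate numbers were not used as pairs, since same-numbered samples did not deviate together (r = 0.03).

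The samples and gene lists were chosen with earlier results of these data known. Of 619 listed symbols, 524 were matched to an identifier by the gene name table, and the rest were not analysed here. Named genes are up to 6 list members with the largest change among those that passed, a fixed set of defining genes, the 15 DEGs that rose and the 15 that fell most with non-overlapping groups and a mean of at least 200 normalized counts in the higher group, 5 each way in the other comparisons, and the 6 genes with the largest gap between duplicates. Other members, and the genes repeated across the other comparisons, were chosen after their values were seen, and some genes the rule names are not reported here. Promoter windows came from RefSeq, and figures were drawn with matplotlib 3.10.9 in Python 3.11.15.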

Additional observations from a re-analysis of the deposited data

How the results depend on the processing

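Of the 150 named genes that passed in the comparison with pESCLC-primary, 28 did not pass with all 14 samples in a single fit, 21 and 21 did not pass without Epi-piPSC-FL6i replicate 1 and 2, and 9 and 10 without pESCLC-primary replicate 1 and 2. Call losses elsewhere were few: HOXA9 with pseudocounts of 0.1 and 5, no filter and TMM, CRABP2, GDF15 and MESP1 with a pseudocount of 0.1 and with no filter, GRHL1 and HOXD4 with no filter, and ELOVL6, GRHL1, HOXD8 and MESP1 with DESeq2. With a minimum of 50 normalized counts, 153 of 164 named genes were still tested, none with a changed call, and the rest fell below the filter. Without pESCLC-primary replicate 1 the difference in ELF5 was 0.27 in place of -0.71 (-1.69 without pESCLC-primary replicate 2). The fitted change of 33 of the 150 moved by more than 1.5-fold when a sample was left out, by 0.60 to 2.48 on the log2 scale, most for HOXA9 (-1.79 without pESCLC-primary replicate 1) and CDX2 (-8.11 without pESCLC-primary replicate 2).

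DEGs against pESCLC-primary numbered 1531 to 1746 (535 to 732 higher, 952 to 1014 lower) on leaving out each sample, and genes at the adjusted p numbered 4126 to 7526 (1685 to 3942 higher, 2441 to 3584 lower). A fold limit of 3 gave 3354 (1310 higher, 2044 lower), as a lower limit must. The single fit gave 4380 genes at the adjusted p (1966 higher, 2414 lower). Against Epi-piPSC-FLB2i, leaving out a sample gave 1054 to 1178 DEGs (430 to 477 higher, 615 to 701 lower), and a pseudocount of 5 gave 725 (298 higher, 427 lower). Against pESCLC-FL6i the ranges were 0 to 2115 (0 to 650 higher, 0 to 1465 lower) and DESeq2 gave 1473 (1136 lower). Against Lv-piPSC-F they were 0 to 1473 (0 to 830 higher, 0 to 643 lower), and 234 were lower with a pseudocount of 5. In both of these comparisons every named gene that had passed lost its call without either Epi-piPSC-FL6i sample, and LIN28A and MYO1A did so against pESCLC-FL6i with a pseudocount of 0.1. A fit with 1 Epi-piPSC-FL6i sample left takes its spread from the other pair alone, so it does not decide whether the groups differ. The cause of the losses with the pseudocount was not tested. A block on the replicate number gave 1697 DEGs and 8454 genes at the adjusted p against pESCLC-primary, 1101, 750 and 721 DEGs against Epi-piPSC-FLB2i, pESCLC-FL6i and Lv-piPSC-F, and let CDH1, EIF1AY, KDM5D and TET1 pass, while CDH1 against Lv-piPSC-F did not pass (adjusted p = 0.0526 in limma). With 2 samples a group and 16493637 to 17887375 reads on genes, genes near 1 read cannot be ranked.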
